A study of Mus musculus with 12 samples.

Results

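The mitochondrial chromosome of the mouse carries 37 genes, and all of them were measured in the colon by RNA-Seq. They were selected as every gene whose symbol starts with mt-, which gave 37 of the 54532 genes in the count table. The set comprised 13 protein-coding genes, 2 rRNA genes and 22 tRNA genes, and the table listed no other gene on that chromosome. The 12 libraries came from colon tissue of male, wild-type C57BL/6J mice that were 5 weeks old when they entered the experiment, with 3 libraries in each of 4 groups. Mice of the control group were not given dextran sodium sulfate (DSS), which damages the lining of the colon. The model group received DSS alone, the Rhy group DSS and the alkaloid rhynchophylline (Rhy), and the DXM group DSS and the glucocorticoid dexamethasone at 4 mg/kg. Rhy was given in the experiment at 2, 4 or 8 mg/kg, and the dose of the sequenced mice is not stated in the sources used here. The labels do not say whether each library is 1 mouse or a pool, so p-values measure only the spread between these libraries.

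Mitochondrial DNA is read from both strands as long transcripts that are cut into mRNAs, rRNAs and tRNAs, mostly at the tRNAs. Its protein-coding genes specify core subunits of the respiratory chain complexes I, III and IV and of ATP synthase, while nuclear genes supply all other subunits and every factor that copies the DNA or makes and processes the RNA. Colonocytes are known for burning butyrate in their mitochondria, and mitochondrial transcripts are among the most abundant RNAs of many tissues. Parts of mitochondrial DNA have also been copied into nuclear chromosomes, and reads from such parts can fit both places.

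The total count was 14346478 to 17749716 per library. All 10 colon epithelium markers were counted in every library, with a summed level of 19248 to 43136 CPM (the count scaled to library size). The libraries model 1 and model 2 were far closer to each other than any other pair. Their common dispersion was 0.00201, against 0.0604 to 0.351 in the other 65 pairs, and a chi-square of their counts over the tested genes was 2.80 per degree of freedom, above counting noise, against 46.8 to 271 in the other pairs. The labels do not say whether both come from the same mouse or RNA. If they do, the model group holds fewer than 3 independent samples, and its SDs and the p-values that use it are too small. They were kept as separate libraries, and values with the pair as 1 library stand beside the main results. Hoxb13, a gene of the posterior colon, was at 0 in Rhy 1, 0.165 CPM in control 3 and 1.49 CPM in model 3, and at 72.0 CPM or more in the other 9 libraries. The B cell markers summed to 1.11 CPM in Rhy 1 and 8.89 CPM in control 3, with Cr2 or Ms4a1 at 0 in some libraries, and to 91.3 to 146 CPM in the other 10. In bulk tissue, fewer cells of a type and less RNA per cell cannot be told apart.

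Pseudogenes on chromosome 1 repeat a run of mitochondrial genes almost letter for letter, which bears on the values of those genes. On GRCm38, 7 annotated pseudogenes lay side by side at chr1:24611535-24616197 on the minus strand, a span of 4663 bases. Their spacing matched that of the mitochondrial genes to within 1 base, between positions 6390 and 11042 of the mitochondrial chromosome. Only the annotated pseudogenes were compared by sequence. The bases between them, where mt-Atp8 (but for its overlap with mt-Atp6) and 5 tRNA genes would lie, were not analysed here. The members mt-Co2, mt-Atp6, mt-Co3, mt-Nd4l and the first 876 bases of mt-Nd4 were identical to Gm28661, Gm10925, Gm28437, Gm10222 and Gm28439 over the length of those pseudogenes. In mt-Nd3 the only difference from Gm28438 was T3C, and in the last 483 bases of mt-Co1 the only difference from Gm29216 was A1066T, with the mitochondrial base first and positions counted from 1 at the gene's start. Of the 37 genes, 11 lay wholly inside the span of this copy, 2 in part and 24 outside, and inside or outside the copy refers to that span. The first 90 bases of 2 member genes and their copies are shown because gene and copy are alike there in all bases but the marked ones, with differing bases in capitals.
mt-Co2: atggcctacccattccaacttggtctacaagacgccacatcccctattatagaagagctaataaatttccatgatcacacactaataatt
Gm28661: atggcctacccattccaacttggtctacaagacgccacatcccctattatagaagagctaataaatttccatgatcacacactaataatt
mt-Nd3: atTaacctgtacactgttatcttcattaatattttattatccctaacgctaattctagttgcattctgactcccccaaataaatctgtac
Gm28438: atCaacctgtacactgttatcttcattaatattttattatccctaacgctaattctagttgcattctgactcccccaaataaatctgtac

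Elsewhere the nuclear copies found were less alike, and those outside chromosome 2 held at most 9 counts in a library. The closest were on chromosome 2, where Gm13340 matched mt-Co1 at 97.6% and held 527 to 6183 counts per library. Its neighbour Gm13341 matched mt-Co2 at 95.9% and held 31 to 594 counts. The first 90 bases of mt-Co2 differed from Gm13341 at C25T and G57A, in capitals here.
mt-Co2: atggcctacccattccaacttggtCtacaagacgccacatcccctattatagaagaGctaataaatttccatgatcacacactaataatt
Gm13341: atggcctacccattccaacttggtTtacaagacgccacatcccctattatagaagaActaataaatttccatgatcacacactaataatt
A copy of mt-Cytb on chromosome 4, Gm11410, matched at 92.9% and held no count in any library. In the bases shown, 2 to 91 of mt-Cytb, the differences were G14A, C24T, C61T, T66C and C78T.
mt-Cytb: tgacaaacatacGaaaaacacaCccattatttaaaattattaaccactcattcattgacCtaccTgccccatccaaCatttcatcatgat
Gm11410: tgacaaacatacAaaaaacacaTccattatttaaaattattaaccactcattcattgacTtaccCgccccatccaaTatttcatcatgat

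Mitochondrial reads made up 6.33% to 25.7% of the counted reads, and no difference between group means exceeded the SD within control, Rhy or DXM. The SD within model was smaller than its differences from control and Rhy. The 37 genes took 21.0%, 16.99% and 6.33% of all counts in control 1, 2 and 3, and 13.4%, 14.0% and 11.1% in model 1, 2 and 3. They took 23.8%, 15.2% and 8.90% in Rhy 1, 2 and 3, and 25.7%, 7.88% and 7.48% in DXM 1, 2 and 3. The highest and lowest of the 12 libraries differed 4.06-fold, and each group except the model group held libraries above and below all 3 model libraries. The library numbered 3 had the lowest share in all 4 groups, and the library numbered 1 the highest in control, Rhy and DXM. The labels give these numbers no meaning, and the part of a shared batch in the share was not tested. Group means were 14.8% ± 7.58 (SD, n = 3) in control, 12.8% ± 1.53 in model, 15.98% ± 7.49 in Rhy and 13.7% ± 10.4 in DXM.

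The share was 1.94 percentage points lower in the model group than in the control group by an exact two-sided permutation test (p = 0.8). It was 3.15 points higher in Rhy than in model (exact permutation p = 0.7) and 0.842 points higher in DXM than in model (exact permutation p = 1). Rhy was 1.21 points above control (exact permutation p = 0.8) and DXM 1.10 points below it (exact permutation p = 1). All 5 adjusted p-values were 1, and the smallest p that groups of 3 can give is 0.1. With model 1 and model 2 averaged, the differences from the model group were -2.37, 3.58 and 1.28 points in the same order. On the log2 scale 96.0% of the sum of squares of the share lay within groups. With groups of 3 most of it is expected there even without a group difference. The within-group SD was 0.78, which corresponds to a factor of 1.71. The direction rested on single libraries. Without control 1 the model group was 1.18 points above control, without Rhy 1 the Rhy group was 0.773 points below model, and without DXM 1 the DXM group was 5.16 points below model.

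**Figure D1:**
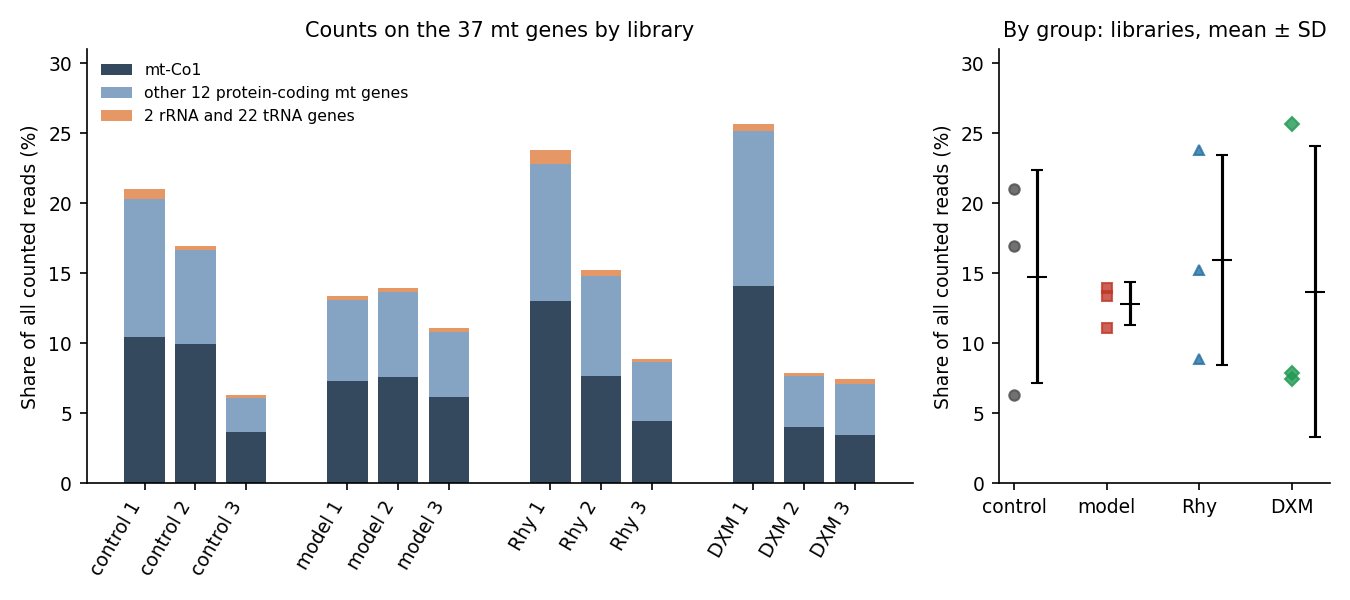
Left, the percent of all counted reads on the 37 mitochondrial (mt) genes in each library, stacked as mt-Co1, the other 12 protein-coding genes and the rRNA and tRNA genes. Right, the same totals by group with the mean ± SD (n = 3): the model libraries lie between 11.1% and 14.0%, inside the range of each other group.

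The rest of the counts, on nuclear genes, is the complement of the share by definition. It was 74.3% in DXM 1 and 93.7% in control 3, the extremes. The TMM scaling factor, which corrects CPM for such shifts in composition, was 0.815 in Rhy 1 and 1.17 in DXM 2. In 4 libraries 3 of the 6 most counted genes were mitochondrial, and in the other 8 libraries 4 to 6 were.

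One gene, mt-Co1, took more counts than any other mitochondrial gene in every library. The gene encodes the catalytic core of complex IV and took 48.8% to 59.6% of the counts on the 13 protein-coding genes, and 3.47% to 14.1% of all counts. The complex III subunit mt-Cytb followed with 14.3% to 18.4% of the 13 genes' counts and the complex I subunit mt-Nd1 with 9.53% to 11.6%. The complex I subunits mt-Nd5, mt-Nd4 and mt-Nd2 took 4.63% to 6.51%, 4.90% to 7.34% and 3.12% to 4.80%. The only protein-coding gene on the minus strand, mt-Nd6 of complex I, took 1.32% to 1.79%. The other 6 genes took at most 1.08% each. These are shares of reads and not levels, since the genes differ in length.

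Per gene length, in FPKM, the order mt-Co1, mt-Cytb, mt-Nd1, mt-Nd4 held in all 12 libraries. In control 1, 2 and 3, mt-Co1 stood at 79443, 74617 and 21699 FPKM, and in model 1, 2 and 3 at 42969, 45008 and 38543 FPKM. It stood at 102720, 50663 and 26412 FPKM in Rhy 1, 2 and 3, and at 98828, 21911 and 18849 FPKM in DXM 1, 2 and 3. The control, Rhy and DXM groups each held a library above and a library below the whole model group. The level of mt-Co1 was 2.09 to 3.09 times that of mt-Cytb.

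The remaining order followed the copy on chromosome 1. The 5 protein-coding genes outside it (mt-Nd1, mt-Nd2, mt-Nd5, mt-Nd6 and mt-Cytb) were each above all 6 genes wholly inside it (mt-Co2, mt-Atp8, mt-Atp6, mt-Co3, mt-Nd3 and mt-Nd4l) in every library. The lowest gene outside was 1.96 to 5.07 times the highest gene inside, in FPKM. The complex IV subunits mt-Co2 and mt-Co3 were at 315 to 3803 and 126 to 1666 FPKM, and the ATP synthase subunit mt-Atp6 at 165 to 2719 FPKM. The complex I subunits mt-Nd4l and mt-Nd3 were at 48.9 to 611 and 11.8 to 86.6 FPKM. For the ATP synthase subunit mt-Atp8, which overlaps mt-Atp6 by 43 bases, the level was 222 FPKM in Rhy 1, 160 FPKM in DXM 1 and 6.25 to 40.6 FPKM in the other 10 libraries. Whether the low level of these 6 genes comes from reads that fit 2 places was not tested, since the reads were not used here.

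**Figure D2:**
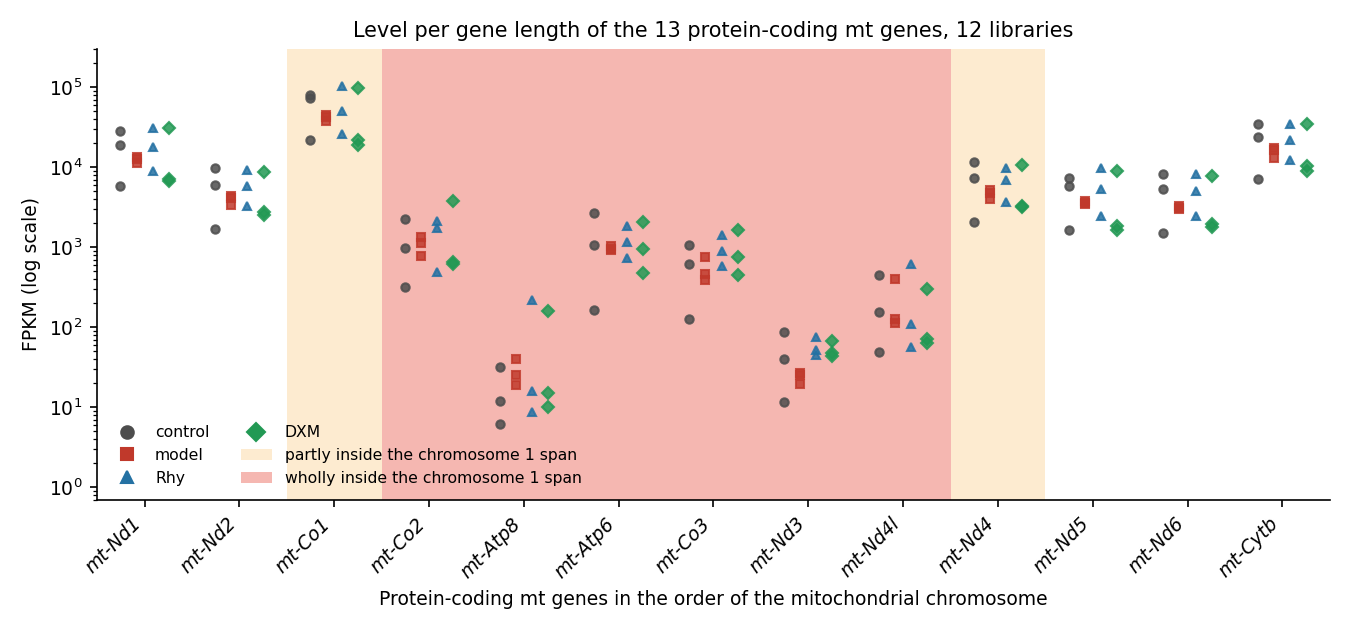
FPKM (log scale) of the 13 protein-coding mt genes in the 12 libraries, with genes in chromosome order and 1 point per library. The 6 genes on the dark band, which lie wholly inside the span of the chromosome 1 copy, are below the 5 genes on white in every library, and mt-Co1 is the highest gene throughout.

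The genes mt-Nd4 and mt-Co1 lie partly inside the copy. Only 502 of the 1378 bases of mt-Nd4 lie outside the copy. When all its counts were assigned to those bases, its median level rose from 4970 to 13642 FPKM, next to mt-Nd1 (13118 FPKM) and below mt-Cytb (16969 FPKM). For mt-Co1 the same step, over 1062 of 1545 bases, moved the median from 43988 to 63994 FPKM. This assumes that no read was counted on the bases shared with that copy, so for mt-Nd4 the true value can lie anywhere between. For mt-Co1 the upper value is not a limit. Further stretches of mt-Co1 are repeated letter for letter in other nuclear pseudogenes, Gm13340 included.

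The copies on chromosome 1 carried counts in every library, 0.0711% to 0.571% of the total. Of the counts on mt-Co2 and Gm28661 together, 41.4% to 60.5% were listed for mt-Co2. The share was 42.9% to 68.9% for mt-Atp6, 46.1% to 77.1% for mt-Co3 and 43.9% to 80.0% for mt-Nd4l, all with an identical partner. For mt-Nd3, which differs from Gm28438 by T3C, it was 8.05% to 25%, so that most counts stood with the nuclear gene. In mt-Co1 and mt-Nd4, which extend beyond the copy, it was 98.5% to 99.7% and 97.5% to 99.2%. Values of mt-Co2, mt-Atp6, mt-Co3, mt-Nd4l and mt-Nd3 are therefore uncertain for each gene. For mt-Atp8 no partner is annotated, so no such split can be given. Adding all 7 copies to the 37 genes changed the mitochondrial share only to 6.40% to 26.2%.

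**Figure D3:**
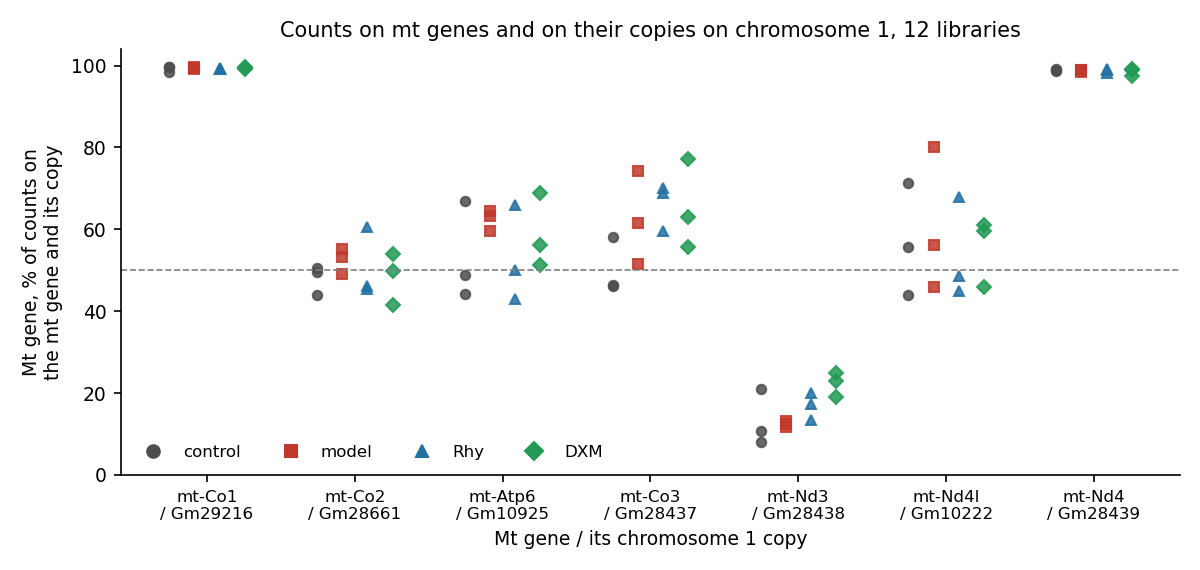
For 7 mt genes, the percent of the counts on the gene and its chromosome 1 copy that were listed for the mt gene, 1 point per library and coloured by group. The dashed line is an even split: mt-Co2 lies between 41.4% and 60.5%, mt-Nd3 at 25% or less, and mt-Co1 and mt-Nd4 near 100%.

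The spread between libraries followed the same division. Within groups, the SD of a gene's log2 share of the 13 genes' counts was 0.09 to 0.19 for the 5 genes outside the copy, 0.09 to 0.20 for mt-Co1 and mt-Nd4, and 0.38 to 1.03 for the 6 genes inside. Between the near-identical libraries model 1 and model 2, shares differed by a factor of 0.961 to 1.00 for genes outside and 0.773 to 3.39 for genes inside. The largest factors were 3.39 for mt-Nd4l, 2.01 for mt-Co3 and 1.68 for mt-Atp8, in libraries whose mt-Co1 share differed by a factor of 1.00.

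The 2 rRNA genes, mt-Rnr1 and mt-Rnr2 (the small and large subunit RNAs of the mitochondrial ribosome), took 1.67% to 4.27% of the mitochondrial counts in these mRNA libraries. In control 1, 2 and 3, mt-Rnr2 was at 4159, 1978 and 1111 CPM, and in model 1, 2 and 3 at 1636, 1770 and 1724 CPM. It was at 7461, 2579 and 1319 CPM in Rhy 1, 2 and 3, and at 2931, 896 and 1978 CPM in DXM 1, 2 and 3. Rhy 1 was the highest library for both rRNA genes, with mt-Rnr1 at 4675 CPM against 496 to 3472 CPM in the other 11. Every group overlapped every other.

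The tRNA genes, 59 to 75 bases long, took 0.196% to 0.500% of the mitochondrial counts. Of the 22, mt-Tf had no count in any library and 12 reached 10 counts in at least 1 library. Those inside the chromosome 1 copy were nearly empty: the 5 genes reached 11 counts at most, whereas 11 of the 17 outside reached 10 counts. The 3 with the highest mean CPM were mt-Tp, mt-Tc and mt-Tn, with at most 7392, 1062 and 708 counts in a library. All 3 are encoded on the minus strand, and the sources do not say whether counting used strand, so reads of the opposite strand cannot be told apart from theirs.

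With edgeR's quasi-likelihood test, 25 of the 37 genes passed the filter on low counts: all 13 protein-coding genes, both rRNA genes and 10 tRNA genes. In each of the 5 comparisons 0 of these 25 had an adjusted p under 0.05, and the smallest adjusted p was 0.392. The background was the same, since 0 of the 16904 genes tested, 0%, passed in any comparison. DESeq2 and limma also called 0 mitochondrial genes, but their share of all genes called is not given here.

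The model group had lower values than the control group for most members, within the spread. Of the 25 tested genes, 22 had a log2 fold change below 0. At an unadjusted p under 0.05, 0 were higher, where 5.11% of all genes were, and 2 were lower (mt-Tc and mt-Tn), where 4.51% were. This count in both directions was 0 without control 1 or model 1, 1 without model 2 and 5 without control 3. The share of all genes in these refits is not given here, so these counts have no background beside them. The median log2 fold change of the 13 protein-coding genes was -0.42, with 11 below 0, against 0.01 over all genes. It was -0.41 to -0.48 under the other count scalings, -0.45 with model 1 and model 2 summed, -0.23 in limma on log2(FPKM + 1), -0.90 without control 3 and 0.06 without control 1. The values were -0.42 for mt-Co1 (SE 0.73, edgeR adjusted p 0.881), -0.45 for mt-Cytb and -0.47 for mt-Nd1. The 5 genes outside the copy had a median of -0.47, and mt-Nd3 had the lowest protein-coding value, -0.90 (SE 0.52).

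Relative to the model group, the Rhy group had higher values for 24 of the 25 genes, again within the spread. At an unadjusted p under 0.05, 3 were higher (mt-Tc, mt-Tn and mt-Nd3), where 1.74% of all genes were, and 0 were lower, where 1.98% were. With 1 library left out the count was 2 to 5, the highest without Rhy 3, with no share of all genes given for these refits. All 13 protein-coding genes had a log2 fold change above 0, with a median of 0.58, against -0.01 over all genes. That median was 0.64 with model 1 and model 2 summed, 0.09 without Rhy 1 and 0.89 without Rhy 3. The values were 0.48 for mt-Co1 (SE 0.73), 0.52 for mt-Cytb and 0.60 for mt-Nd1, and 1.17 and 1.15 for mt-Rnr1 and mt-Rnr2. Genes of 1 chromosome that share transcripts are not independent, and both comparisons use the same model libraries.

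Relative to the model group, the DXM group had higher values for 22 of the 25 genes, with a smaller median of 0.26 over the 13 protein-coding genes. At an unadjusted p under 0.05, 3 were higher (mt-Tc, mt-Tn and mt-Nd3), where 4.89% of all genes were, and 0 were lower, where 2.80% were. The median turned to -0.73 without DXM 1, the library with the highest mitochondrial share, was 0.30 with model 1 and model 2 summed, and was -0.00 in limma on log2(FPKM + 1). The values were 0.13 for mt-Co1 (SE 0.73), 0.20 for mt-Cytb and 0.26 for mt-Nd1.

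Against the control group, no member passed in either drug group. For Rhy against control the median of the 13 genes was 0.12 and 0 of the 25 genes had an unadjusted p under 0.05, where 6.46% of all genes were higher and 5.09% lower. For DXM against control the median was -0.21 and again 0 of 25 passed, where 8.68% of all genes were higher and 10.2% lower. With 1 library left out the counts were 0 to 1 and 0 to 2, again without a share of all genes beside them.

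**Figure D4:**
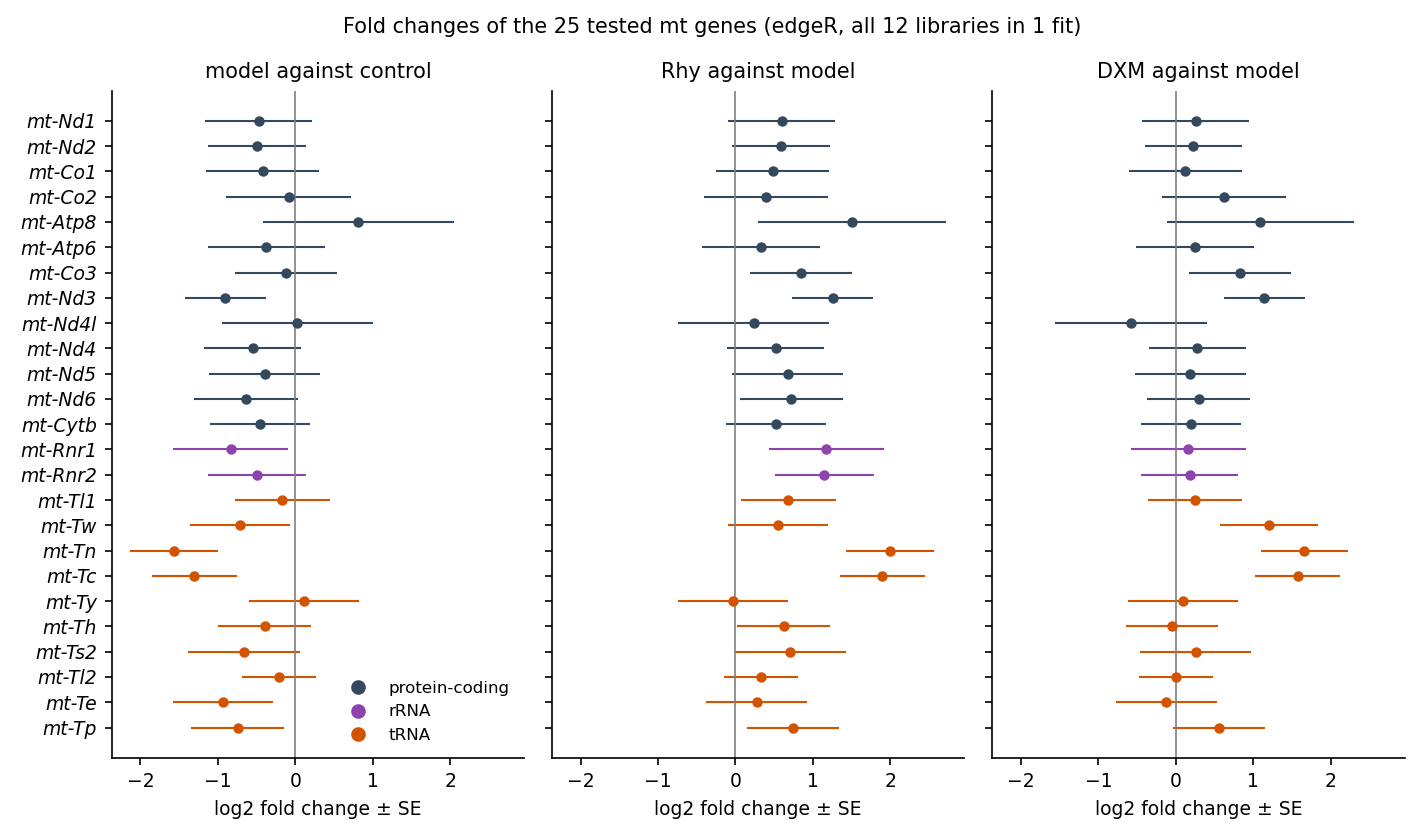
Log2 fold changes ± SE of the 25 tested mt genes in 3 comparisons, by gene class. The 13 protein-coding genes have medians of -0.42, 0.58 and 0.26, with standard errors that mostly cross 0, and mt-Tn and mt-Tc lie farthest from 0 in each panel.

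The neighbouring tRNA genes mt-Tn and mt-Tc, for asparagine and cysteine, stood out among the members. They lie at positions 5089 to 5159 and 5192 to 5257, on either side of the short stretch where light-strand DNA replication starts. In model 1, 2 and 3, mt-Tn was at 7.67, 8.37 and 10.4 CPM, and in control 1, 2 and 3 at 43.3, 24.5 and 10.8 CPM. It was at 60.6, 16.9 and 28.4 CPM in Rhy 1, 2 and 3, and at 36.0, 12.8 and 35.0 CPM in DXM 1, 2 and 3. Every model library was below all 9 other libraries, although control 3 lay next to model 3. How many of all tested genes had the model group below all 9 others is not given here. The log2 fold change was -1.57 in model against control (SE 0.56, edgeR adjusted p 0.479), 2.00 in Rhy against model (SE 0.57, edgeR adjusted p 1.00) and 1.66 in DXM against model (SE 0.56, edgeR adjusted p 0.622). In model against control it was -0.997 without control 1, and the unadjusted p exceeded 0.05 there and without model 1.

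The pattern of mt-Tc was alike. In model 1, 2 and 3 it was at 12.5, 12.0 and 15.2 CPM, and in control 1, 2 and 3 at 54.1, 28.9 and 15.1 CPM. It was at 90.9, 25.2 and 31.9 CPM in Rhy 1, 2 and 3, and at 47.0, 20.3 and 50.7 CPM in DXM 1, 2 and 3. The model group lay below the Rhy and DXM groups and overlapped the control group through control 3. The log2 fold changes were -1.30 (SE 0.55, edgeR adjusted p 0.495), 1.90 (SE 0.55, edgeR adjusted p 1.00) and 1.57 (SE 0.55, edgeR adjusted p 0.622) in the same order. In model against control the value was -0.73 without control 1, and the unadjusted p exceeded 0.05 there and without model 1 or model 2. In Rhy against model it was 1.11 without Rhy 1. A member lay wholly below the control group in the model group for 1 of 25 genes, where 6.61% of all tested genes did. For 3 of 25 genes Rhy lay wholly above model, where 5.51% did, and for 4 of 25 DXM did (mt-Tc, mt-Tn, mt-Nd3 and mt-Tw), where 10.4% did. Of these mt-Tw held few reads, with 20, 4 and 8 counts in model 1, 2 and 3 and at most 32 counts in any library.

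These genes were low in the model group also as a part of the mitochondrial counts. Per 1000 mitochondrial counts, mt-Tn had 0.0611, 0.0635 and 0.0955 in model 1, 2 and 3, against 0.126 to 0.187 in control, 0.107 to 0.346 in Rhy and 0.127 to 0.543 in DXM. The same measure of mt-Tc was 0.0906 to 0.139 in model, 0.148 to 0.262 in control, 0.160 to 0.388 in Rhy and 0.166 to 0.787 in DXM. Both were below the other 9 libraries in all 3 model libraries, which the most counted tRNA, mt-Tp, was not: its range in model, 1.55 to 1.66, began above the lowest control library at 1.53. This ratio was chosen after the values were seen and carries no test. No share of all genes that lie below the other 9 libraries in this way is given here. With model 1 and model 2 summed, the unadjusted p of edgeR in model against control was 0.0473 for mt-Tn and 0.0814 for mt-Tc. In the same fit it was 0.0166 and 0.0185 in Rhy against model, and 0.0374 and 0.0414 in DXM against model. On chromosome 2 the copies of mt-Nd2 and mt-Co1, Gm13339 and Gm13340, are 376 bases apart, as are the mitochondrial genes, and these tRNA genes fall in that interval, whose chromosome 2 sequence was not analysed here.

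The complex I subunit mt-Nd3 was at 7.005, 9.53 and 8.99 CPM in model 1, 2 and 3, and at 26.8, 18.6 and 15.7 CPM in Rhy 1, 2 and 3. It was at 23.9, 15.4 and 17.1 CPM in DXM 1, 2 and 3, and at 30.0, 13.8 and 4.06 CPM in control 1, 2 and 3. Both drug groups lay above the model group, with log2 fold changes of 1.26 (SE 0.52) and 1.14 (SE 0.52) and edgeR adjusted p-values of 1.00 and 0.648. With model 1 and model 2 summed, the unadjusted p of edgeR was 0.0707 and 0.0955. With 1 library left out it stayed under 0.05 in 2 of 6 fits of Rhy against model, those without Rhy 2 or Rhy 3, and in 0 of 6 fits of DXM against model. Summed with Gm28438, which took most of the counts of the pair, the level was 59.6 to 72.4 CPM in model and 90.9 to 199 CPM in Rhy. In DXM the sum was 61.7, 74.6 and 126 CPM, which overlaps the model group.

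**Figure D5:**
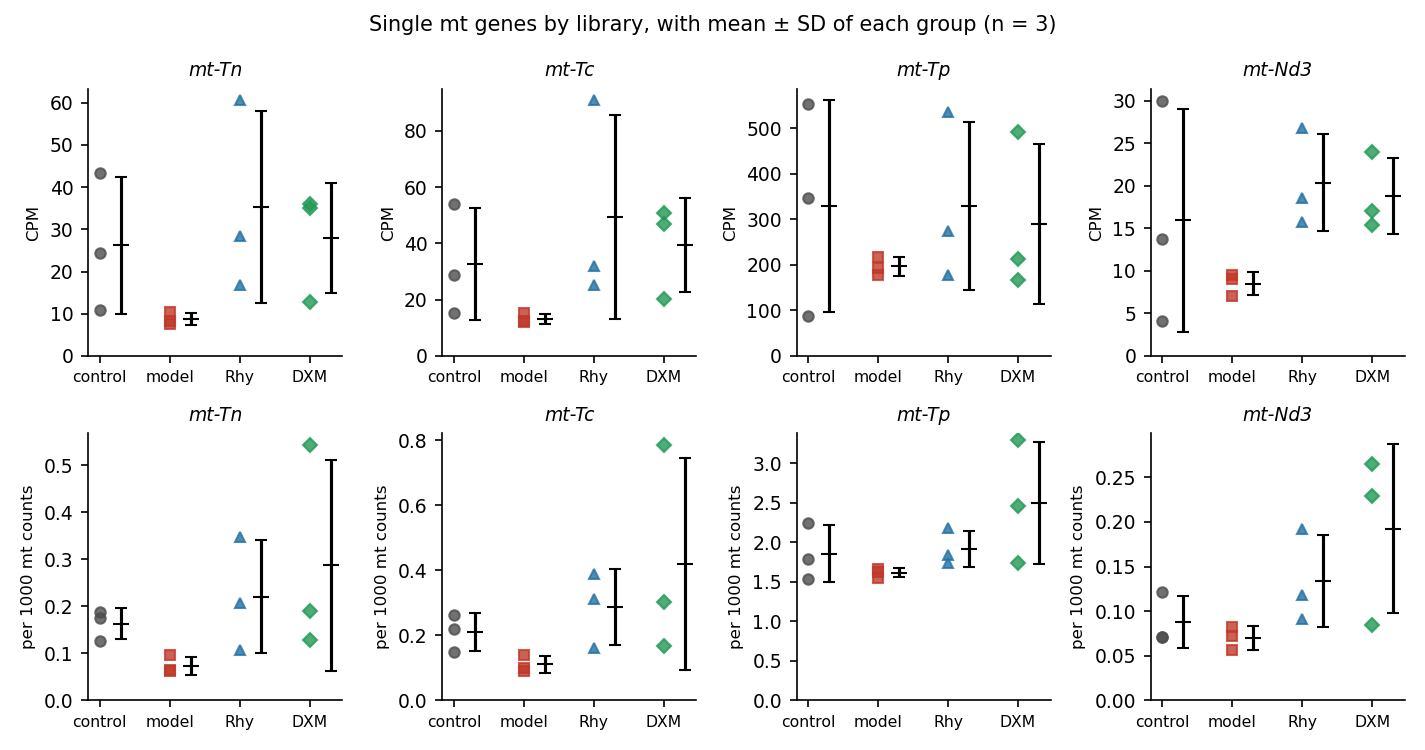
Levels of mt-Tn, mt-Tc, mt-Tp and mt-Nd3 by library with the mean ± SD of each group (n = 3), as CPM (top) and per 1000 mitochondrial counts (bottom). For mt-Tn and mt-Tc the 3 model libraries are the lowest in the bottom row, at 0.0955 and 0.139 or less.

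Nuclear genes supply the factors that maintain mitochondrial DNA and make its RNA. Of 47 such factors tested, 0 had an adjusted p under 0.05 in any comparison. In model against control 3 were higher at an unadjusted p under 0.05, where 5.11% of all genes were, and 1 was lower, where 4.51% were. In Rhy against model 0 were higher or lower, where 1.74% and 1.98% of all genes were. In DXM against model 0 were as well, where 4.89% and 2.8% of all genes were. Against control, 5 were higher and 2 lower in Rhy, where 6.46% and 5.09% of all genes were. In DXM 5 were higher and 3 lower, where 8.68% and 10.2% of all genes were. Those 4 in model against control were Slirp, Hsd17b10 and Rexo2, all in the handling of mitochondrial RNA, and Tk2, the mitochondrial thymidine kinase. Slirp, the partner of Lrpprc in stabilizing mitochondrial mRNAs, was at 3.53, 2.91 and 5.30 CPM in model 1, 2 and 3 and at 1.198, 1.32 and 2.36 CPM in control 1, 2 and 3. The model group lay wholly above the control group, as it did for 10.4% of all tested genes, and the log2 fold change was 1.25 (SE 0.45, edgeR adjusted p 0.479). Its unadjusted p exceeded 0.05 without control 1, control 2 or model 3.

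For the core machinery, the log2 fold changes in model against control were 0.28 for Tfam, the packaging and transcription factor of mitochondrial DNA, 0.07 for the RNA polymerase Polrmt and 0.12 for its partner Tfb2m. They were 0.26 for the DNA polymerase Polg, -0.15 for the helicase Twnk, 0.43 for Lrpprc, 0.12 for the poly(A) polymerase Mtpap and 0.05 for the RNA granule protein Grsf1. Among the nuclear regulators they were -0.36 for Ppargc1a, -0.11 for Nrf1 and -0.22 for Esrra. In Rhy against model these 12 factors, Slirp included, had values from -0.43 (Polg) to 0.38 (Ppargc1a). In DXM against model they had values from -0.37 (Twnk) to 0.16 (Nrf1).

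Most nuclear subunits of the same complexes had higher values in Rhy than in either the model or the control group, within the spread. In Rhy against model 71 of 74 tested had a log2 fold change above 0, with a median of 0.25 against -0.01 over all genes, but 0 passed at an adjusted p under 0.05 and 2 (Atp5g1 and Atp5j, both of ATP synthase) at an unadjusted p under 0.05, where 1.74% of all genes were higher. All 14 ATP synthase subunits, all 11 of complex IV and all 9 of complex III were above 0, as were 34 of 36 of complex I and 3 of 4 of complex II. Atp5g1, a subunit of the membrane ring, was at 146, 151 and 221 CPM in model 1, 2 and 3 and at 397, 436 and 387 CPM in Rhy 1, 2 and 3. The Rhy group lay wholly above the model group, as it did for 5.51% of all tested genes. The log2 fold change was 1.23 (SE 0.29, edgeR adjusted p 1.00), or 1.14 with model 1 and model 2 summed. In control Atp5g1 was at 224 ± 27.1 CPM (SD, n = 3).

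In model against control 29 of 74 nuclear subunits were above 0, with a median of -0.05 against 0.01 over all genes. At an unadjusted p under 0.05, 0 were higher, where 5.11% of all genes were, and 0 were lower, where 4.51% were. The smallest p was that of Ndufb6 of complex I, with a log2 fold change of 0.44 (SE 0.21, edgeR adjusted p 0.527). In DXM against model 42 of 74 were above 0 with a median of 0.04, and 1 was higher at an unadjusted p under 0.05, where 4.89% of all genes were, Ndufb2 of complex I, with a log2 fold change of 0.65 (SE 0.23, edgeR adjusted p 0.622). The medians of the nuclear subunits were smaller in size than those of the mitochondrial ones in all 3 comparisons, a difference that was not tested. In Rhy against control, which uses the same Rhy libraries, 66 of 74 were above 0 with a median of 0.21, and in DXM against control 34 of 74 with a median of -0.04. At an unadjusted p under 0.05, 5 were higher and 0 lower in Rhy against control, where 6.46% and 5.09% of all genes were. In DXM against control 2 were higher and 1 was lower, where 8.68% and 10.2% of all genes were.

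Across libraries the mitochondrial share was compared with the mean log2 CPM of 5 gene lists, over 11 samples with model 1 and model 2 averaged, by permutation tests. With the nuclear respiratory subunits Pearson's r was 0.514 (permutation p 0.107, adjusted 0.266) and Spearman's rho 0.527 (permutation p 0.101, adjusted 0.252). Without the 2 samples farthest from the median of the list, Rhy 1 and control 3, r was 0.0903. Leaving out the extremes of a list narrows its range, which by itself tends to make r smaller in size. Within groups r was 0.542. With the colon epithelium markers r was 0.596 (permutation p 0.0517, adjusted 0.259) and rho 0.645 (permutation p 0.0365, adjusted 0.182), with r at 0.410 without the 2 farthest samples and 0.734 within groups. With the factors of mitochondrial gene expression r was -0.453 (permutation p 0.160, adjusted 0.266) and rho -0.391 (permutation p 0.235, adjusted 0.391), with r at -0.225 without the 2 farthest and -0.517 within groups. With smooth muscle markers r was 0.301 (permutation p 0.364, adjusted 0.455) and rho 0.291 (permutation p 0.384, adjusted 0.481), with r at 0.206 and 0.418. With B cell markers r was -0.185 (permutation p 0.621, adjusted 0.621) and rho -0.109 (permutation p 0.756, adjusted 0.756), with r at 0.219 and -0.112. No relation passed after adjustment over the 5 lists.

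Markers of other tissue layers differed between libraries of 1 group. The summed smooth muscle level was 3561 to 6681 CPM in control, 4007 to 5134 CPM in model, 6173 to 6898 CPM in Rhy and 5516 to 9653 CPM in DXM, so that both drug groups lay above the model group. The summed goblet cell level was 1471 to 10828 CPM in control and 1333 CPM in Rhy 1, the library with the highest rRNA values. The epithelial level was 24582 to 31584 CPM in model, within the range of control (26497 to 43136 CPM) only in part, and 28768 to 35200 CPM in Rhy. In DXM it was 33606 CPM in DXM 1, the library with the highest mitochondrial share, and 19596 and 19248 CPM in DXM 2 and 3, which had lower shares. The order was not the same in Rhy, where Rhy 3 had 34024.5 CPM with a share of 8.90%, and Rhy 2 28768 CPM with a share of 15.2%. The part of these differences in the mitochondrial values was not tested.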

How the data were processed

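The authors prepared mRNA libraries from total RNA of colon tissue and sequenced them on a HiSeq X10. The deposited table holds unnormalized counts, whole reads for every gene, and the FPKM values deposited by the authors scale the same counts by gene length and library size. The submitters' processing notes name HISAT2 2.0.5, featureCounts 1.5.0-p3, DESeq2 1.16.1 and mm10. The treatment of reads that fit several places and of strand, and the read length, are not given in the sources used here. The coordinates of all 37 genes match GENCODE M21 (GRCm38), whose transcripts gave the sequences printed here. Copies were sought by BLAST at an identity of at least 90% over at least 200 bases. All 12 libraries entered 1 edgeR 4.0.16 fit in R 4.3.3 (TMM, filterByExpr with a minimum count of 10, quasi-likelihood test, Benjamini-Hochberg adjustment over 16904 genes within each comparison). CPM values use TMM-scaled library sizes, and list levels a prior count of 2. The alternatives used DESeq2 1.42.0 and, on log2(FPKM + 1) or log2(FPKM + 0.1), limma 3.58.1. The fits were tested on simulated data. Shares were compared by exact permutation tests, and relations by 100000 permutations.

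Of the genes, all 37 members were accounted for, with values for the protein-coding and rRNA genes, the 3 most abundant tRNA genes, 12 factors, the nuclear subunit with the smallest p in each of the 3 comparisons that involve the model group and nuclear copies that hold counts. Other names were chosen after their values were seen. The members and lists were chosen with earlier results of these data known. Same-numbered libraries of different groups differ in treatment, no source says that they share a batch, and over all genes they did not deviate together (correlations of -0.310 to 0.363 over 18 pairs), so the numbers were not used as pairs. The paper's RNA-Seq methods name the control, model and Rhy groups only; the DXM group comes from the labels. Total counts were 14346478 or more per library. Counting error is not small for members with few counts, such as most tRNA genes.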

Additional observations from a re-analysis of the deposited data

How the results depend on the processing

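The number of mitochondrial genes, mitochondrial expression factors and nuclear respiratory subunits with an adjusted p under 0.05 was 0 under all 83 alternatives run for each. A share of all genes with such a p is given here for the main fit only. The difference in mitochondrial share could not pass at 0.05 in any alternative, because the smallest exact permutation p for groups of 3 is 0.1. Smaller groups give a larger one. The sign of the difference changed in 11 of 73 alternatives. Leaving out 1 library gave -6.16 to 1.18 percentage points for model against control, -0.773 to 6.69 for Rhy against model, -5.16 to 3.94 for DXM against model, -3.01 to 4.75 for Rhy against control and -7.10 to 2.02 for DXM against control. On the log2 scale the difference was -0.039 in model against control and 0.21 in Rhy against model. In DXM against model it changed sign, to -0.15. Single reversals were 1.18 (model against control) and 2.02 (DXM against control) without control 1, 0.00853 (DXM against control) without control 2, -3.01 (Rhy against control) without control 3, -0.773 and -2.71 without Rhy 1, -5.16 without DXM 1, 1.80 and 2.00 (DXM against control) without DXM 2 and DXM 3, and -0.0230 (DXM against model) without model 3.

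The median log2 fold change of the 13 protein-coding genes ranged with 1 library left out from -0.90 to 0.06, 0.09 to 0.89, -0.73 to 0.61, -0.38 to 0.68 and -1.09 to 0.32 in the same order. Only DXM against model without DXM 1 moved it by more than the within-group SD of 0.98. That SD is of single libraries and is larger in size than every main median. A median that moved by less is therefore not shown to be stable. With the replicate number as a block the medians were -0.14, 0.33, -0.03, 0.22 and -0.21, and 0 genes were called. The difference in share cannot change with this block, since the mean of paired differences equals the difference of group means. For the share this alternative is therefore no check. Of 12 libraries, 5 correlated best with a library of their own number. The upper-quartile scaling moved the median of all genes in DXM against control to 0.15. With all 12 libraries separate, the relations of the share with the 5 lists kept their signs and none passed. Added after seeing the data, a share of the 5 genes outside the chromosome 1 copy, or with the copies included, kept every sign. For the 5 genes with a whole annotated partner in that copy, the split of reads between the 2 cannot be checked from counts, at any depth.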
